A study of Mus musculus with 6 samples.

Results

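Genes of the Kcn families, which encode the pore-forming and auxiliary subunits of potassium channels, were compared between mice with high and with low sexual motivation. All entries of the deposited gene table whose symbol starts with Kcn were taken, except Kcne2, which gave 70 of 13170 genes in 19 subfamilies from Kcna to Kcnv. The choice used the gene symbol alone. The high group (high libraries 1 to 3) and the low group (low libraries 1 to 3) each held 3 poly(A) RNA libraries of brain tissue from C57 mice, which the series title describes as adult males. The labels name no treatment and no engineered allele in either group. The tissue is the medial amygdala in the title, PrL in the extraction protocol and brain in the tissue label. How motivation was scored, the exact age, and whether a library came from 1 animal or from pooled animals remain unstated in the labels. As a result, p-values cover just the spread among these libraries, and that spread may be technical.

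Potassium channels set the resting potential of neurons and glia, repolarise the action potential and limit firing. Voltage-gated channels are tetramers of pore subunits (Kcna, Kcnb, Kcnc, Kcnd, Kcnh, Kcnq), some of which assemble with silent subunits that form no channel alone (Kcnf, Kcng, Kcns, Kcnv) or with auxiliary subunits (Kcnab, Kcnip, Kcne). Inward rectifiers (Kcnj) and 2-pore leak channels (Kcnk) act near rest, and calcium- or sodium-activated channels (Kcnm, Kcnn, Kcnt) follow activity.

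Levels were read as FPKM (fragments counted for a transcript, scaled by its length and by the mapped total), which allow genes of different length to be set side by side. Mean FPKM over the 6 libraries ran between 0.636 (Kcnh5) and 69.6 (Kcnab2), with a median of 5.59 over the 70 members and 6.27 over all genes of the table. Kcnab2, the main cytosolic beta subunit of Kcna channels, had 71.3, 76.9 and 65.5 FPKM in the high libraries, beside 65.3, 63.6 and 75.2 FPKM in the low libraries. Kcnip2, an auxiliary subunit of Kcnd channels, followed with 59.6 to 63.9 FPKM in the high group and 56.9 to 67.8 FPKM in the low group, a range that overlaps that of Kcnab2. Other abundant members were the silent subunits Kcnf1 (mean 44.9) and Kcng1 (37.9) and the inward rectifiers Kcnj4 (42.0) and Kcnj9 (41.3), and the ranges of these 4 genes over libraries overlapped each other. The summed FPKM of all members was 853.4, 891.0 and 794.9 in the high libraries, beside 863.6, 847.9 and 889.3 in the low libraries, so the groups overlapped in their total potassium channel transcript level.

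**Figure D1:**
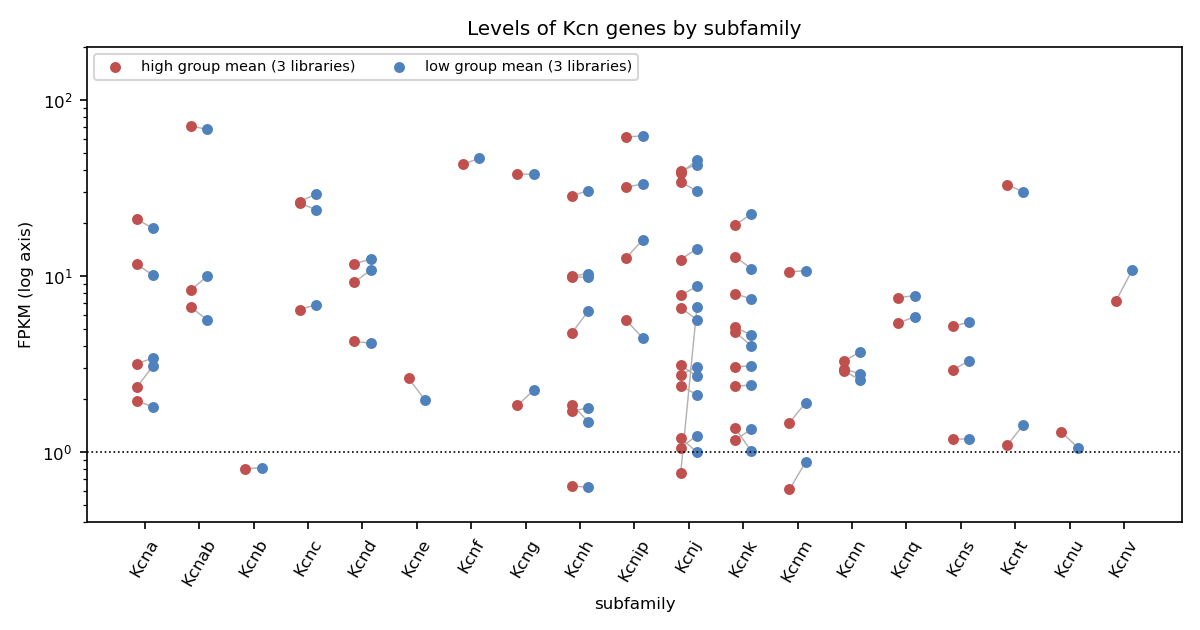
Mean FPKM (log axis) of 66 Kcn genes in the high group (left point) and the low group (right point, 3 libraries each), by subfamily, with a grey line joining the points of a gene. The dotted line marks 1 FPKM, the filter on the mean over the 6 libraries, and the steepest line belongs to Kcnj13, at 0.759 FPKM in the high group and 6.69 FPKM in the low group.

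No Kcn gene passed the test between the groups. The fit used log2(FPKM + 1) in limma over the 12026 genes with a mean of at least 1 FPKM, which included 67 of the 70 members, and p-values were adjusted over all of these genes. At an adjusted p under 0.05 it called 0 members and 0 of all genes (0%), and the smallest adjusted p of a member, 0.363, was that of Kcnv1. At an unadjusted p under 0.05 there were 11 of the 67 members (16.4%, where the share over all tested genes was 8.39%). Of these, 5 members were higher in the high group (7.46%, against 4.12% of all tested genes) and 6 lower (8.96%, against 4.27%). Without low library 1 these counts were 3 higher and 3 lower, where the shares of all tested genes were 2.44% and 2.50%. Without high library 1 they were 2 higher and 7 lower, where the shares were 2.93% and 4.17%. The 3 high libraries lay all above or all below the 3 low libraries in 20 members (29.9% of those tested, against 14.9% of all tested genes), with 10 higher (7.33% of all tested genes) and 10 lower (7.61%). The authors' deposited table gave an unadjusted p under 0.05 to 7 of 70 members, where 7.40% of all genes had one (3.79% higher and 3.61% lower), and the smallest of a member was that of Kcnk6.

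The differences were small and ran in both directions. Over the 67 tested members 30 (44.8%, against 50.1% of all tested genes) had a log2 difference (high minus low) above 0 and 37 below, with a median of −0.017, against a median of 0.00018 over all tested genes. This scale of log2(FPKM + 1) understates the ratio of genes with low FPKM. The median size of a member's log2 difference, without its sign, was 0.125, against 0.0804 over all tested genes, beside a median standard error of 0.0974 for members and 0.0900 for all. Group means differed at least 2-fold in Kcnj13 alone, and the ratio of means of the 20 separate members lay between 0.669 and 1.36.

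**Figure D2:**
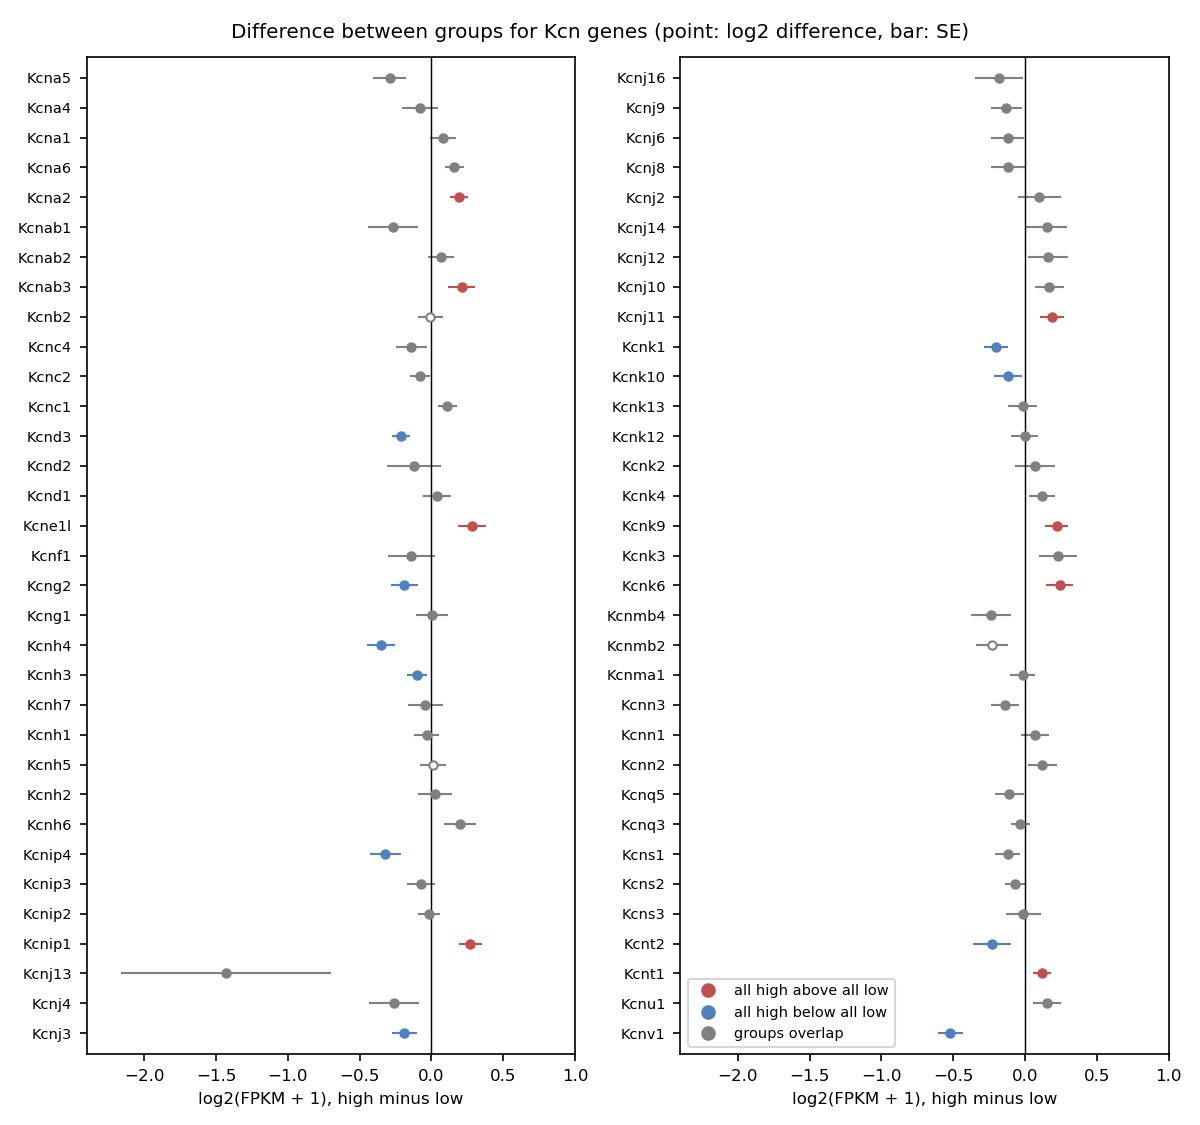
Log2 difference between the groups (high minus low, log2(FPKM + 1), point) with its standard error (bar) for 66 Kcn genes, ordered by subfamily. Red and blue points mark the 8 genes drawn with all high libraries above and the 10 with all high libraries below the low libraries; open points mark 3 genes below the filter (Kcnb2, Kcnh5 and Kcnmb2), taken from the fit without it.

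Kcnv1, Kcnh4 and Kcnip1 were the members with the smallest p. Kcnv1 encodes a silent voltage-gated subunit that forms no channel alone and modifies Kcnb channels. It had 7.65, 7.41 and 6.58 FPKM in the high libraries, against 9.96, 10.4 and 11.97 FPKM in the low libraries. Every high library lay below every low library, with a ratio of means of 0.669 and a log2 difference of −0.52 (SE 0.0879; limma adjusted p = 0.363). Kcnv1 lies on chromosome 15 from 45106284 to 45114920 (GRCm38, minus strand), and no exon of another gene overlaps its exons in the GENCODE annotation.

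Kcnh4 encodes a voltage-gated pore subunit of the ether-a-go-go family. It had 5.09, 5.00 and 4.16 FPKM in the high libraries, against 6.63, 6.71 and 5.61 FPKM in the low libraries, again with no overlap (log2 difference −0.35, SE 0.0969; limma adjusted p = 0.548). Kcnip1, a calcium-binding auxiliary subunit that shapes Kcnd currents, stood in the other direction. It had 5.65, 5.44 and 5.70 FPKM in the high libraries, against 4.45, 4.06 and 4.88 FPKM in the low libraries, with every high library above every low one (log2 difference 0.27, SE 0.0787; limma adjusted p = 0.553). These 3 members had an unadjusted p under 0.05 under each of the 20 alternative settings tried, and none had an adjusted p under 0.05 under any of them. They were picked by their p, and the settings reuse the same libraries, so this is no independent support. How many of all genes did the same under these settings was not counted. Over those settings the adjusted p ran between 0.132 and 0.979 for Kcnv1, between 0.195 and 0.979 for Kcnh4 and between 0.191 and 0.979 for Kcnip1.

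**Figure D3:**
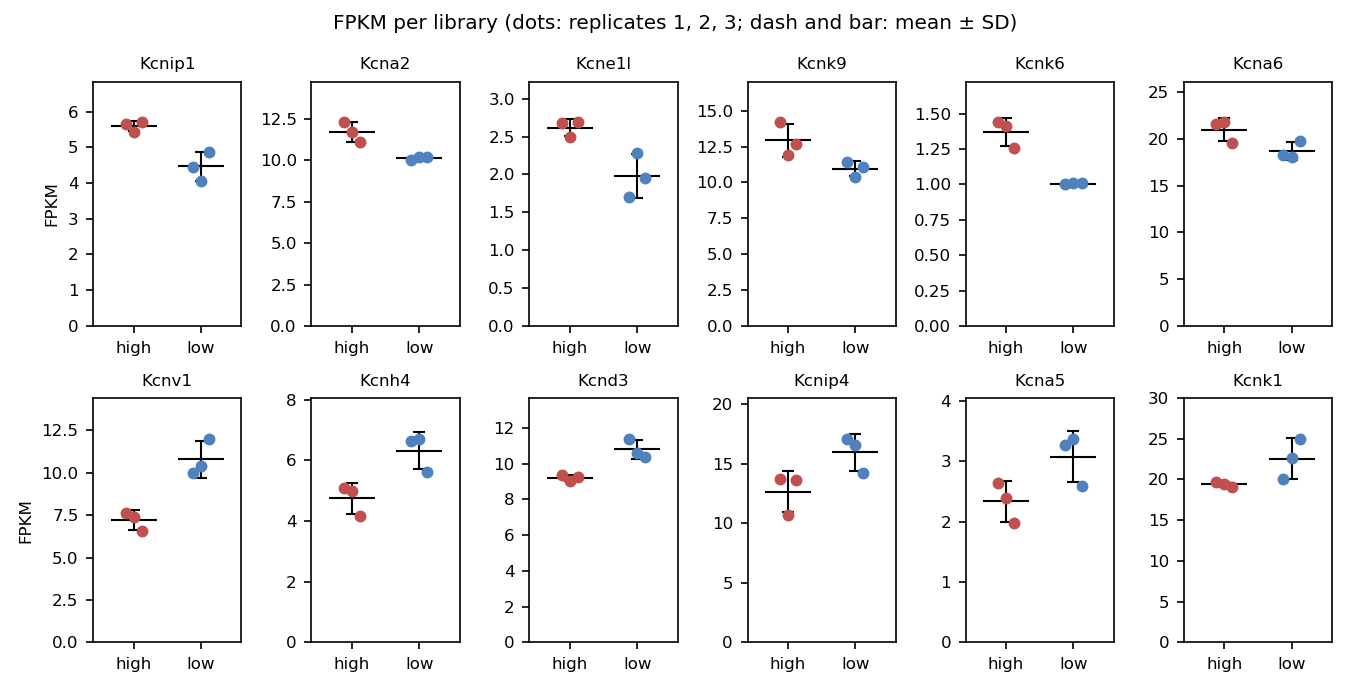
FPKM in each library (dots, replicates 1 to 3 from left to right; dash and bar, mean ± SD) for the 6 tested Kcn genes with the smallest p that were higher (top) and lower (bottom) in the high group, with the axis starting at 0. In Kcna6 and Kcna5 the groups overlap, and in the other 10 genes they do not.

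The promoter sequences of Kcnh4 and Kcnip1 are shown because these genes had an unadjusted p under 0.05 under every setting tried and stood in opposite directions. Kcnv1 met the same rule on p, but no RefSeq window was matched for it. RefSeq windows were matched for 48 of the 70 members, with 71 windows in all. Kcnh4 starts on the minus strand of chromosome 11, and Kcnip1, on the same strand of the same chromosome, has 3 annotated starts, which the gene-level FPKM cannot tell apart. Each window holds the 250 bases before a start, 5′ to 3′ on the strand of the gene (GRCm38.p6), with capitals on matches to 5 motifs on either strand, of which the GC box and the E-box occur in these windows. The GC box was searched as GGGCGG. The E-box was searched as CACGTG. The CRE was searched as TGACGTCA. The TATA box was searched as TATAAA, and the MEF2 motif by its usual core with free inner bases.
Kcnh4, chr11:100759779-100760028: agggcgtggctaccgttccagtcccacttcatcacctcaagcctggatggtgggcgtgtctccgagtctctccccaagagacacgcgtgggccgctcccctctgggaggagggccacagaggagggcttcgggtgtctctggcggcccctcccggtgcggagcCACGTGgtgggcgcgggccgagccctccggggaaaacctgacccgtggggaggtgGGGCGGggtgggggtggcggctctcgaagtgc
Kcnip1, chr11:33680683-33680932: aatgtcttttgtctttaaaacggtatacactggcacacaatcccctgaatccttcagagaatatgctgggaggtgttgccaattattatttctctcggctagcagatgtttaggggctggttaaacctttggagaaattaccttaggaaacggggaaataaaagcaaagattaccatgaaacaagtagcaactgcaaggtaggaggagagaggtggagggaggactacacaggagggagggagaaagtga
Kcnip1, chr11:33843687-33843936: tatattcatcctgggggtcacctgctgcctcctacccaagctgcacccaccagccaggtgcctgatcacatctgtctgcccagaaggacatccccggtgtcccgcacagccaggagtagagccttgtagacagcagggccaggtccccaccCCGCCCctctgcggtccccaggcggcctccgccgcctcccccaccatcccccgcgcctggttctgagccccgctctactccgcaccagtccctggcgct
Kcnip1, chr11:33993194-33993443: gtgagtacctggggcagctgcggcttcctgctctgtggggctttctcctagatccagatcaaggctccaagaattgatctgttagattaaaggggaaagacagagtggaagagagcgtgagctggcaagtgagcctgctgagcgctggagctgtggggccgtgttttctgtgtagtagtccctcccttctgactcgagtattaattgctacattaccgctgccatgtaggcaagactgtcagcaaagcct

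The Kcnh4 window was 70.8% G or C, with 20 CpG dinucleotides, 1 GC box and 1 E-box. It is set by the RefSeq start, and part of it lies inside the gene as GENCODE has it, which extends to 100759942. Of the Kcnip1 windows, 1 was 67.6% G or C and held a GC box, and the other 2, at 44.0% and 52.8%, held none of the motifs. A GC box stood in 32 of 71 member windows (45.1%, against 32.7% of all 32851 windows), a TATA box in 3 (4.23%, against 12.4%), an E-box in 4 (5.63%, against 6.02%), a MEF2 motif in 2 (2.82%, against 3.20%) and a CRE in 0 (0%, against 1.55%). Member windows had a median of 59.2% G or C, where all windows had 52.4%. A match describes the letters of the window and is not evidence that a factor binds there.

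Among the Kcna genes, which encode low-threshold axonal delayed rectifiers, 3 of 5 were higher. Kcna2, the main subunit of the juxtaparanode beside the node of Ranvier, had 12.3, 11.7 and 11.1 FPKM in the high libraries, against 10.003, 10.2 and 10.2 FPKM in the low libraries. All high libraries were above all low libraries (log2 difference 0.19, SE 0.0634; limma adjusted p = 0.564). Kcna6 had 21.6, 21.8 and 19.6 FPKM in the high libraries, beside 18.3, 18.1 and 19.8 FPKM in the low libraries, where high library 3 fell inside the range of the low group (limma adjusted p = 0.596). Kcna1 stood at 1.96 ± 0.107 and 1.80 ± 0.169 (SD, n = 3 each), and Kcna4, an A-type subunit, at 3.17 ± 0.484 and 3.42 ± 0.585 FPKM in the high and low groups. Kcna5, a delayed rectifier also known from vascular smooth muscle, had 2.64, 2.39 and 1.97 FPKM in the high libraries, against 3.26, 3.37 and 2.59 FPKM in the low libraries. Its groups touched, since high library 1 exceeded low library 3 (log2 difference −0.29; limma adjusted p = 0.582). The summed FPKM of the 5 Kcna genes was 42.3, 40.7 and 37.6 in the high libraries, against 36.8, 37.4 and 37.3 in the low libraries, so the sums did not overlap, although high library 3 exceeded the highest low library by little.

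The beta subunits of these channels were divided. Kcnab3 had 6.68, 6.76 and 6.46 FPKM in the high libraries, against 4.84, 6.34 and 5.74 FPKM in the low libraries (log2 difference 0.21; limma adjusted p = 0.596). Its groups did not overlap, low library 1 was the lowest by a wide gap, and without that library the log2 difference was 0.12. Kcnab1 had 10.8, 5.96 and 8.26 FPKM in the high libraries, beside 10.4, 10.7 and 8.87 FPKM in the low libraries, with high library 2 far below the rest. Kcnab3 shares exon sequence with the opposite-strand gene Kcnab3os, and Kcnab1 with A330015K06Rik. Exons of Kcnab2 overlap Gm16334 on the same strand. Over the 70 members, 23 had an exon overlap on the opposite strand and 2 on the same strand. Kcng2 (D330025C20Rik), Kcnj3 (Gm26794) and Kcnt2 (4930590L20Rik) are among the 23. The sources used here do not say whether counting used the strand.

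Among the fast-spiking Kcnc genes, Kcnc1 stood at 25.9 ± 1.59 in the high group and 23.8 ± 0.974 FPKM in the low group, Kcnc2 at 6.45 ± 0.400 and 6.88 ± 0.288, and Kcnc4 at 26.5 ± 3.76 and 29.2 ± 2.58 (SD, n = 3 each). These 3 overlapped between the groups.

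The A-type Kcnd genes and their Kcnip partners held members that stood apart in opposite directions. Kcnd3, a pore subunit of the somatodendritic A current, had 9.35, 9.03 and 9.25 FPKM in the high libraries, against 11.4, 10.6 and 10.4 FPKM in the low libraries. The high libraries lay close together and below all low libraries (log2 difference −0.21, SE 0.0637; limma adjusted p = 0.553). Kcnd2, the other main pore subunit, had 14.3, 7.96 and 12.9 FPKM in the high libraries, beside 13.4, 13.1 and 10.9 FPKM in the low libraries. Its log2 difference of −0.12 rested on high library 2, without which it was 0.12. Kcnd1 stood at 4.27 ± 0.365 in the high group and 4.14 ± 0.518 FPKM in the low group. Kcnip4, whose variants can remove the fast inactivation of Kcnd channels, had 13.7, 10.7 and 13.6 FPKM in the high libraries, against 17.1, 16.6 and 14.2 FPKM in the low libraries. It was lower in every high library (log2 difference −0.32, SE 0.109; limma adjusted p = 0.572), and the difference was −0.21 without high library 2.

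Within a library, the ratio of Kcnip1 to Kcnip4 was 0.413, 0.508 and 0.419 in the high libraries, against 0.260, 0.245 and 0.344 in the low libraries. The 2 genes were paired after their values had been seen, so the ratio describes these libraries and was not tested. Kcnip2 (61.5 ± 2.17 in the high group and 62.6 ± 5.47 FPKM in the low group) and Kcnip3 (31.9 ± 4.23 and 33.4 ± 1.82) overlapped, and they are the more abundant of the 4 Kcnip genes, so the sum of the 4 was 112 ± 4.86 in the high group and 116 ± 4.58 FPKM in the low group. Exons of Kcnd3 overlap Kcnd3os, and those of Kcnip4 overlap 5730480H06Rik and Gm20700, each on the opposite strand.

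In the Kcnh genes 4 of 6 tested members were lower. Beside Kcnh4, Kcnh3, a related subunit of forebrain neurons, was lower in every high library, at 29.5, 29.5 and 26.4 FPKM, against 30.1, 29.7 and 32.1 FPKM in the low libraries. The gap was small, with a log2 difference of −0.10 (SE 0.0683; limma adjusted p = 0.679), it was −0.052 without high library 3, and Kcnh3 shares exon sequence with Mcrs1 on the opposite strand. Kcnh6 had 1.86 ± 0.207 in the high group and 1.49 ± 0.280 FPKM in the low group, Kcnh1 9.12 to 11.1 and 9.38 to 11.01, Kcnh2 9.90 ± 0.536 and 9.82 ± 1.87, and Kcnh7 1.71 ± 0.367 and 1.78 ± 0.184. Kcnh5, below the filter, had 0.641 ± 0.0579 and 0.632 ± 0.0496.

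Among the Kcnq genes, which carry the M current that restrains repetitive firing, Kcnq3 had 7.91, 7.56 and 7.16 FPKM in the high libraries, beside 7.56, 7.81 and 7.83 FPKM in the low libraries, a log2 difference of −0.033 (SE 0.0654). Kcnq5, a further subunit of that current, had 6.17, 5.32 and 4.70 FPKM in the high libraries, beside 5.51, 5.65 and 6.49 FPKM in the low libraries, a log2 difference of −0.11 (SE 0.102). The groups overlapped in both genes.

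Of the silent subunits other than Kcnv1, Kcng2 was lower in every high library, at 1.83, 1.76 and 1.93 FPKM, against 2.56, 2.06 and 2.14 FPKM in the low libraries (log2 difference −0.19; limma adjusted p = 0.605). Kcnf1 spread widely within the high group, with 38.1, 56.9 and 34.5 FPKM, where the low libraries had 47.4, 44.8 and 47.5 FPKM. Kcng1 stood at 38.0 ± 5.28 in the high group and 37.8 ± 3.83 FPKM in the low group, and the 3 Kcns genes had log2 differences between −0.12 (Kcns1) and −0.013 (Kcns3), with overlapping groups. Kcns2, the most abundant of these, stood at 5.17 ± 0.172 in the high group and 5.48 ± 0.308 FPKM in the low group. Kcnb2, a partner of these subunits below the filter, had 0.806 ± 0.0847 and 0.813 ± 0.0257 FPKM in the high and low groups.

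Kcne1l, the 1 single-pass beta subunit of the Kcne family analysed here, was higher in every high library. It had 2.68, 2.49 and 2.69 FPKM in the high libraries, against 1.70, 2.29 and 1.95 FPKM in the low libraries (log2 difference 0.28, SE 0.0974; limma adjusted p = 0.572). Low library 2 came within a small distance of the high group.

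Inward rectifiers were the largest subfamily, with 12 members, of which 5 were higher and 7 lower. Kcnj11, the pore of the ATP-sensitive channel that couples metabolism to excitability, had 7.34, 6.40 and 6.06 FPKM in the high libraries, against 5.85, 5.34 and 5.79 FPKM in the low libraries, with no overlap (log2 difference 0.19, and 0.12 without high library 1; limma adjusted p = 0.596). Kcnj3, a subunit of the channels opened by G protein beta-gamma, was lower in every high library, at 13.3, 10.8 and 13.3 FPKM, against 14.3, 14.8 and 13.8 FPKM in the low libraries (log2 difference −0.19, and −0.10 without high library 2; limma adjusted p = 0.599). Its partners overlapped between the groups, with Kcnj9 at 39.6 ± 6.56 in the high group and 43.0 ± 0.487 FPKM in the low group and Kcnj6 at 2.74 ± 0.535 and 3.06 ± 0.199. Kcnj4, a strong rectifier of forebrain neurons, had 38.6, 48.7 and 28.4 FPKM in the high libraries, beside 42.7, 43.2 and 50.2 FPKM in the low libraries. Its log2 difference of −0.26 became −0.06 when high library 3 was left out and −0.44 when high library 2 was. Kcnj2 stood at 2.37 ± 0.612 in the high group and 2.12 ± 0.366 FPKM in the low group, Kcnj12 at 3.12 ± 0.546 and 2.69 ± 0.563, and Kcnj14 at 1.20 ± 0.114 and 1.00 ± 0.343.

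Kcnj13 had the log2 difference farthest from 0 of all members, and 2 low libraries carried it. This rectifier, known from the choroid plexus epithelium, had 0.828, 0.787 and 0.663 FPKM in the high libraries, beside 2.99, 0.530 and 16.5 FPKM in the low libraries. Low libraries 1 and 3 were high, while low library 2 lay below all high libraries (log2 difference −1.43, SE 0.730; limma adjusted p = 0.606). The difference was −0.49 without low library 3, −2.25 without low library 2, and 0.20 with low libraries 1 and 3 left out, a fit in which low library 2 is assumed to vary like the high libraries. Choroid plexus markers, of which 10 of 10 were in the table, followed the same libraries: their summed FPKM was 89.5, 133 and 56.9 in the high libraries, beside 1460, 101 and 4550 in the low libraries. All 9 tested markers of that list were lower in the high group. Otx2, a defining factor of that epithelium, was near 0 in the high libraries (0.0664 to 0.187 FPKM) and in low library 2 (0.173), and had 2.11 and 7.48 FPKM in low libraries 1 and 3. In bulk tissue, fewer cells of a type and less RNA per cell cannot be told apart. Exons of Kcnj13 overlap Gigyf2 on the opposite strand.

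Glial and vascular rectifiers overlapped between the groups. Kcnj10, the astrocyte channel that buffers potassium, had 30.1, 33.3 and 39.5 FPKM in the high libraries, beside 29.1, 33.0 and 28.8 FPKM in the low libraries, and its partner Kcnj16 had 5.59, 7.89 and 9.85 FPKM in the high libraries, beside 8.73, 9.48 and 7.97 FPKM in the low libraries. Within the high group both followed the summed level of 8 astrocyte markers, which was 526, 616 and 690 FPKM in the high libraries, beside 542, 623 and 581 FPKM in the low libraries. Kcnj8, a pericyte rectifier, stood at 1.06 ± 0.157 in the high group and 1.24 ± 0.236 FPKM in the low group, where 8 endothelial and mural markers summed to between 90.7 and 144 FPKM in the high group and between 78.6 and 93.2 FPKM in the low group. The part of these markers in the results was not tested.

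Of the 9 leak channels of the Kcnk family, 2 were higher in every high library (7.33% of all tested genes were) and 2 lower (7.61%). Kcnk9, an acid-sensitive leak channel, had 14.2, 11.9 and 12.7 FPKM in the high libraries, against 11.4, 10.4 and 11.1 FPKM in the low libraries (log2 difference 0.22, SE 0.0792; limma adjusted p = 0.578). Kcnk6, a weakly conducting leak subunit, had 1.44, 1.41 and 1.26 FPKM in the high libraries, against 1.00, 1.01 and 1.01 FPKM in the low libraries, which hardly differed among themselves. Its ratio of means was 1.36, and its log2 difference was 0.24 (SE 0.0913; limma adjusted p = 0.582). Kcnk1, a related and far more abundant subunit, was lower in every high library, at 19.7, 19.4 and 19.1 FPKM, against 20.05, 22.6 and 25.0 FPKM in the low libraries. Here the low libraries spread widely and low library 1 nearly met the high group (log2 difference −0.20, SE 0.0830, and −0.13 without low library 3; limma adjusted p = 0.582). Kcnk10, a mechanosensitive leak channel, had 1.03, 1.247 and 1.22 FPKM in the high libraries, against 1.32, 1.48 and 1.248 FPKM in the low libraries, so high library 2 and low library 3 all but met (log2 difference −0.12, and −0.07 without high library 1; limma adjusted p = 0.740).

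The other 5 Kcnk genes overlapped. Kcnk3, an acid-sensitive relative of Kcnk9, stood at 4.82 ± 0.615 in the high group and 3.997 ± 0.775 FPKM in the low group. The mechanosensitive Kcnk2 had 7.92 ± 1.83 in the high group and 7.41 ± 0.726 FPKM in the low group, with high library 1 the highest at 10.04, and Kcnk4 had 5.13 ± 0.689 and 4.61 ± 0.0811. Kcnk13, known from microglia, had 2.36 ± 0.170 and 2.41 ± 0.369, and Kcnk12 3.06 ± 0.0194 and 3.08 ± 0.404. Exons of Kcnk1 overlap Gm45875 on the opposite strand, and exons of Kcnk4 overlap Catsperz on the same strand, so reads of that pair could be shared.

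Among channels gated by calcium or sodium, Kcnt1, a sodium-activated pore subunit, was higher in every high library, at 34.5, 31.6 and 32.5 FPKM, against 30.6, 31.0 and 29.0 FPKM in the low libraries (log2 difference 0.12; limma adjusted p = 0.611). Its relative Kcnt2 was lower in every high library, at 1.26, 0.725 and 1.28 FPKM, against 1.61, 1.33 and 1.36 FPKM in the low libraries (log2 difference −0.23; limma adjusted p = 0.646). High library 2 was far below the others, and without it the difference for Kcnt2 was −0.10. Kcnma1, the pore of the large-conductance calcium-activated channel, stood at 10.6 ± 1.32 in the high group and 10.7 ± 0.201 FPKM in the low group. Its auxiliary subunits Kcnmb4 (1.47 ± 0.328 and 1.91 ± 0.374) and, below the filter, Kcnmb2 (0.613 ± 0.174 and 0.880 ± 0.117) overlapped between the groups. The small-conductance channels Kcnn1, Kcnn2 and Kcnn3 had log2 differences of 0.071, 0.12 and −0.14, all with overlapping groups. Outside this class, Kcnu1, a relative of Kcnma1 known from sperm, had 1.30 ± 0.128 in the high group and 1.06 ± 0.0857 FPKM in the low group, also with overlap.

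Across whole subfamilies, the sum of FPKM separated the groups in Kcna (higher) and in the single-member families Kcne (higher) and Kcnv (lower), and overlapped in the other 16. Among single genes, the groups did not overlap in 14.9% of all those tested, so this count does not set the subfamilies apart. Subfamily medians of the log2 difference lay between −0.14 and 0.15, apart from 0.28 for Kcne1l and −0.52 for Kcnv1. Several medians depended on 1 library. The Kcnd median was −0.12, and 0.055 without high library 2. Leaving out high library 3 put the Kcnip median of −0.046 at 0.015, and leaving out high library 2 put it at −0.10. For Kcnj, a median of −0.12 stood against −0.046 with high library 1 left out and −0.027 with high library 3 left out. For Kcnk, 0.07 stood against 0.001 with high library 1 left out and 0.14 with high library 3 left out. The Kcnn median of 0.071 was −0.02 without low library 2. The Kcnt median of −0.057 was 0.023 without high library 2, 0.12 at a filter of 5 FPKM, where 1 of its genes is left, and 0.051 with the GC and length trend removed. Kcnip, Kcnj, Kcnk and Kcnt each held members whose groups were separate in both directions. In Kcnj this was 1 of 12 in each direction, where 7.33% of all tested genes were separate and higher and 7.61% separate and lower. All 3 Kcns genes were lower with overlapping groups.

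Proteins that bind or traffic potassium channels were listed as a group of 19 genes, of which 17 were in the table and 16 were tested. Of these 9 were higher and 7 lower, with a median log2 difference of 0.036; limma called 0 of them. At an unadjusted p under 0.05 there was 1, where the share of all tested genes was 8.39%. That gene was Cntn2, an adhesion molecule that gathers Kcna channels at the juxtaparanode, at 17.9, 13.7 and 16.5 FPKM in the high libraries, against 12.8, 12.4 and 13.4 FPKM in the low libraries (log2 difference 0.29, SE 0.0957; limma adjusted p = 0.564). Its partner Cntnap2 stood at 11.2 ± 0.398 in the high group and 11.3 ± 0.808 FPKM in the low group. Dpp10, an auxiliary subunit of Kcnd channels, was lower in every high library, at 9.11, 8.49 and 9.23 FPKM, against 10.2, 10.4 and 9.35 FPKM in the low libraries (limma adjusted p = 0.605). Vapb, which anchors Kcnb channels at membrane contacts, was higher in every high library. It stood at 25.4 ± 0.642 in the high group and 24.1 ± 0.389 FPKM in the low group (limma adjusted p = 0.719). Vapa, on the same list, went the other way with overlap, at 51.0 ± 6.17 in the high group and 55.6 ± 1.84 FPKM in the low group. Dpp6, with the role of Dpp10, had 38.3 ± 2.10 and 36.7 ± 0.871 FPKM in the high and low groups.

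Markers of other cell types followed the same libraries as some members, and their part in the results was not tested. All 8 oligodendrocyte markers were higher in the high group, with summed FPKM of 416, 358 and 402 in the high libraries, against 323, 348 and 355 in the low libraries, which separates the groups as Kcna2 and Cntn2 do. The summed level of 7 markers of cortical and hippocampal excitatory neurons was 251, 335 and 189 FPKM in the high libraries, beside 263, 239 and 304 FPKM in the low libraries. Slc17a7, a vesicular glutamate transporter, made up most of that sum, at 180, 256 and 138 FPKM in the high libraries, beside 192, 171 and 230 FPKM in the low libraries. Kcnf1 and Kcnj4 were high in high library 2 and low in high library 3, as Slc17a7 was. Of the 6 tested markers of this list 5 were lower in the high group, and in 2 of them the groups were separate, as they were in Kcnv1. Mef2c, a transcription factor, had 11.4, 13.0 and 10.4 FPKM in the high libraries, against 17.5, 17.7 and 17.1 FPKM in the low libraries, and Emx1, another one, 3.11, 3.49 and 2.40 against 3.64, 3.62 and 4.04 FPKM. The summed level of the 5 general neuronal markers overlapped, at 617 to 691 FPKM in the high group and 603 to 647 FPKM in the low group. Of these markers, Tubb3 alone was higher in every high library, at 199, 218 and 182 FPKM. The low libraries had 172, 152 and 181 FPKM of it (limma adjusted p = 0.582), and the other general neuronal markers overlapped. Of 7 markers of amygdalar and other subcortical neurons 5 were in the table and 2 were not analysed here, and the 3 that were tested had a median log2 difference of 0.39. Otp, a homeobox factor, was higher in every high library, at 1.90, 2.65 and 3.66 FPKM, against 1.27, 1.69 and 1.25 FPKM in the low libraries (limma adjusted p = 0.548). Esr1, which encodes an estrogen receptor, stood the other way, with 0.446, 0.705 and 0.806 FPKM in the high libraries, all below the 1.09, 0.935 and 1.16 FPKM in the low libraries. Slc17a6, another glutamate transporter, overlapped at 15.3 ± 4.16 in the high group and 11.2 ± 2.07 FPKM in the low group, as did Foxp2 at 0.817 ± 0.443 and 0.704 ± 0.248. Lhx6, known from the medial amygdala and cortical interneurons, had 7.67 to 9.50 FPKM in the high group and 8.06 to 9.28 FPKM in the low group.

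**Figure D4:**
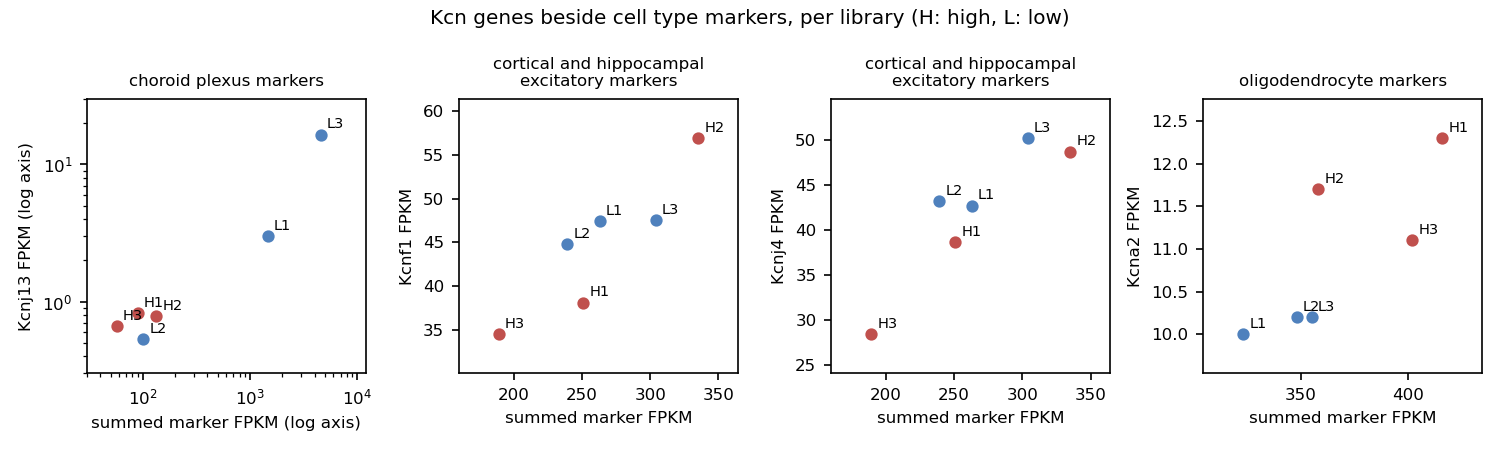
FPKM of Kcnj13, Kcnf1, Kcnj4 and Kcna2 (vertical axes) against the summed FPKM of choroid plexus, cortical and hippocampal excitatory neuron or oligodendrocyte markers (horizontal axes) in each library; both axes of the first panel are log axes. Kcnj13 reached 2.99 and 16.5 FPKM in low libraries 1 and 3, whose choroid plexus markers summed to 1460 and 4550 FPKM, and Kcnf1 ran between 34.5 FPKM in high library 3 and 56.9 FPKM in high library 2.

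Differences also followed the base composition of the transcripts. Over 11996 tested genes the log2 difference was greater at higher GC content of the transcript (Spearman rho 0.400 across genes, which share libraries and are not independent replicates), and over the 67 tested members rho was 0.190. The 10 members that were higher in every high library had transcripts with a median of 55.4% G or C, between 45.8% and 61.1%. The 10 lower ones had a median of 47.8%, between 36.6% and 61.5%, so the ranges overlapped. After a trend on GC content and transcript length was removed from each library, the log2 difference was −0.39 for Kcnv1 (41.0% G or C), −0.38 for Kcnh4 (60.0%) and 0.28 for Kcnip1 (48.1%), while that of Kcnt2 (36.6%) was −0.0014 and that of Kcnip4 (40.1%) was −0.20. Of the 11 members with an unadjusted p under 0.05, 10 kept it after this step, and Kcne1l, whose log2 difference of 0.28 was then 0.22, did not. Both fits used the same libraries, and how many of all genes kept theirs was not counted.

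**Figure D5:**
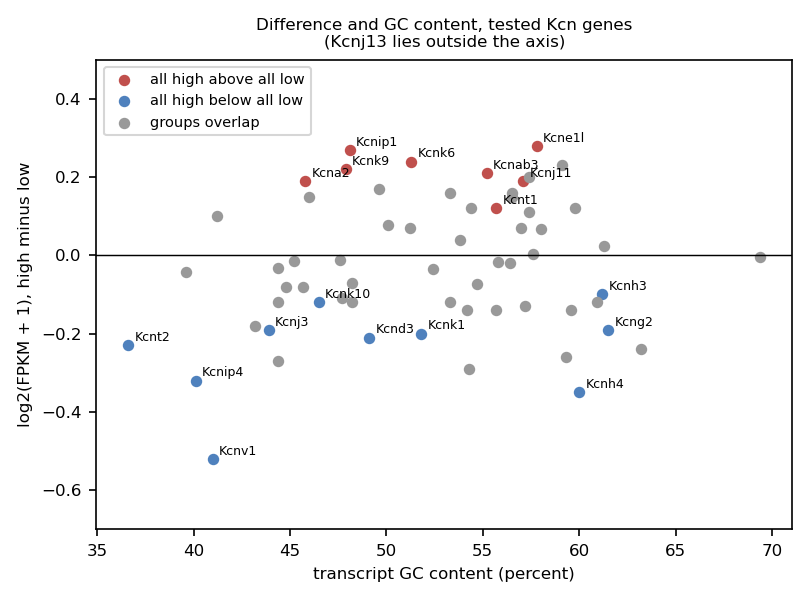
Log2 difference between the groups (high minus low, log2(FPKM + 1)) of tested Kcn genes against the GC content of their longest coding transcript in percent, with 18 genes whose groups do not overlap named. Kcnt2, Kcnip4 and Kcnv1, below 0, lie at the GC-poor end (36.6%, 40.1% and 41.0%), while Kcnh4, Kcnh3 and Kcng2, also below 0, lie near 60% or above.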

How the data were processed

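Gene expression was measured by RNA sequencing in 6 libraries, 3 per group. The values were deposited by the authors as FPKM, 1 column per library, as the table is named. The tools listed, per the submitters' processing notes, are fastp, HISAT2 and StringTie, with GRCm38 as the build. The sources used here state no versions or settings. The authors' deposited table also holds a log2 fold change and an unadjusted p-value per gene, used here only where named. FPKM keep no read counts, so absolute depth is unknown and no count model was fitted. The table holds 0 values at 0, and its lowest mean is 0.500 FPKM.

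Values entered the fit as log2(FPKM + 1) for genes whose mean reached 1 FPKM, and high was set against low in limma 3.58.1 under R 4.3.3 (variance trend, 2-sided, Benjamini-Hochberg adjustment over all tested genes at 0.05), which was checked on simulated data. Members below the filter were taken from the same fit over all 13170 genes. Gene positions, exon overlaps, transcript GC content and length are from GENCODE (GRCm38), to which all 70 members matched; promoter windows are from RefSeq. Members are named by 4 parts of a rule. The first 2 are the 10 per direction with the smallest p and all whose groups do not overlap. The others are the most abundant member of each subfamily and those below the filter. Partner genes are named where their groups did not overlap, and further ones beside them are given by their values. Further members are given by their values, and 4 members that enter the counts are not reported here. The members, lists and tests were chosen with earlier results of these data known. Same-numbered libraries of the 2 groups did not deviate together (Pearson r of their deviations from the group means −0.0939, −0.206 and −0.156). These correlations cannot decide whether the number pairs the libraries, and the main fit used no pairing. The 20 alternatives were 2 other pseudocounts, 2 other filters, 3 scalings, no variance trend, array weights, robust fitting, the replicate number as a block, removal of a GC and length trend (spline, 5 degrees of freedom) without and with that block, each library left out in turn, and low libraries 1 and 3 left out together. Counts and plots were made in Python 3.11.15 (pandas 2.3.3, matplotlib 3.10.9).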

Additional observations from a re-analysis of the deposited data

How the results depend on the processing

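The count of called members was 0 under each of the 20 alternatives, as was the count over all genes, and the lowest adjusted p of a member was 0.132; at an unadjusted p under 0.05, between 361 genes (low libraries 1 and 3 left out) and 1567 genes (array weights) were found. The members higher at an unadjusted p under 0.05, 5 in number, were 3 at a filter of 5 FPKM (4.38% of all tested genes), where fewer genes are tested, 9 with quantile normalization (4.81%) and 10 with array weights (6.65%). With low libraries 1 and 3 left out, 2 were higher (1.76% of all genes) and 2 lower (1.24%), and 42 members had separate groups, since 1 low library has no range. With single libraries left out, 2 to 6 were higher (2.44% to 5.36% of all genes) and 3 to 8 lower (2.50% to 5.65%). In these fits 24 to 29 had separate groups, and the median log2 difference ran between −0.057 and 0.023. Groups of fewer libraries separate more easily in any gene, and the share of all genes was not counted. Neither this count nor the 42 above therefore sets the members apart from other genes. The replicate block gave 5 higher (2.80% of all genes) and 5 lower members (3.38%), 0 of them called, and with the GC and length trend removed 4 (2.76%) and 7 (3.66%). Of the 23 members with the smallest p or with separate groups, 22 kept their direction in all settings run. Kcnj13 had a log2 difference of 0.20 with low libraries 1 and 3 left out. In the 20 members with separate groups, leaving out libraries cannot reverse the direction, so the choice fixed much of this count. Among the other most abundant members of the subfamilies, where the choice left the direction free, some changed sign. Kcng1 was −0.0078 with quantile normalization, −0.045 with array weights and −0.022 with the GC and length trend removed, with or without the block. Kcnma1 was 0.033 with that trend removed, with or without the block, and 0.0099 with low libraries 1 and 3 left out, where Kcnc4 was 0.0051; Kcnd2 was 0.012 with array weights. With single libraries left out, Kcng1 ran between −0.094 and 0.10, Kcnma1 between −0.11 and 0.038, Kcnd2 between −0.27 and 0.12, Kcnf1 between −0.35 and 0.00076, and Kcnip2 between −0.086 and 0.038. The cause was not tested. Scaling moved the median of all genes by at most 0.00657.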

Other observations

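Members differed among the high libraries as much as between the groups in some cases. High library 2 held the lowest value of 16 of the 70 members and the highest of 16. These shares are close to those over all genes, 23.4% lowest and 21.7% highest in that library. Kcnd2 (7.96 FPKM), Kcnab1 (5.96) and Kcnt2 (0.725) were lowest there, and Kcnf1 (56.9), Kcnk4 (5.92) and Kcnn2 (3.38) highest. High library 3 held the lowest value of 17 members and the highest of 8 (18.1% and 16.0% of all genes), with Kcnj4 at 28.4 FPKM. High library 1 held the lowest of 6 and the highest of 18 (13.0% and 16.6% of all genes). Low library 2 held the lowest of 17 and the highest of 9 (17.1% and 14.2% of all genes). Markers of the striatum summed to 85.2, 32.6 and 42.8 FPKM in the high libraries, beside 43.2, 68.1 and 48.4 FPKM in the low libraries, and their part in these differences was not tested.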
